A study of Mus musculus with 6 samples.

Results

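The barcodes described are the smooth muscle and mural barcodes of 2 single-cell libraries of GFP-sorted mouse lung cells, and they were chosen by the unique molecular identifiers (UMIs) of 3 contractile genes. A barcode was kept when it held at least 1000 UMIs, no Ptprc, Pecam1 or Epcam UMI (the leukocyte, endothelial and epithelial genes), no Cthrc1 UMI, and at least 3 UMIs summed over Myh11, Cnn1 and Actg2. This gave 64 barcodes of the 16876 in both libraries, and of the 33286 in the whole series. They were 5 of the 5328 eligible barcodes after PBS (0.0938%, exact 95% binomial interval 0.0305 to 0.219) and 59 of the 7979 after bleomycin (0.739%, 0.563 to 0.953), where eligible means past the depth and lineage limits. The levels of the 3 choosing genes are therefore a description, and intervals throughout cover counting error only.

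Both libraries came from PDGFRa-EGFP mice, in which GFP reports Pdgfra expression, and GFP+ lung cells were sorted, so mural cells without the reporter were not selected for. Weekly doses of 50 ul of PBS or bleomycin were given by oropharyngeal aspiration, 3 in all. The first and second bleomycin doses were 1 U/kg each and the last was 0.5 U/kg. Lungs were taken 2 weeks after the last dose, and cells of 3 mice were pooled into 1 library per condition. Mouse-to-mouse variation could therefore not be measured, and no test between conditions was possible. Members of 1 library are not replicates.

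Smooth muscle cells ring airways and vessels, and pericytes wrap capillaries. They contract when calcium activates myosin light chain kinase, which lets smooth muscle myosin (Myh11 is its heavy chain) pull on smooth muscle actins. Many contractile genes are switched on by serum response factor, which binds a DNA element called the CArG box, together with its coactivator myocardin (Myocd). MyoFBs of injured lung share part of this programme. Cthrc1 marks a matrix-producing state of lung fibroblasts (FBs), and Pdgfra marks most of the FBs in such a sort.

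Myh11, on chromosome 16 (14194527 to 14292188, build GRCm38.p6), was detected in 57 of the 59 bleomycin members. Cnn1, encoding calponin, lies on chromosome 9 (22099221 to 22109221) and was detected in 35. Actg2, the enteric gamma actin, lies on chromosome 6 (83512909 to 83536251) and was detected in 25. All 3 were seen together in 16 members, 2 of them in 26 and only 1 in 17. The summed marker UMIs ranged from 3 to 118 with a median of 6. Just inside the threshold were 9 barcodes with exactly 3 marker UMIs, and just outside were 19 with 2. The 5 PBS members held 3, 4, 5, 22 and 66 marker UMIs, and Myh11 was detected in all 5 but Cnn1 in 1.

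Depth differed between the sets. The bleomycin members had a median of 3246 UMIs (1110 to 63110), against 10686.5 in the 414 Cthrc1-positive barcodes and 7606 in the 4723 other Pdgfra-positive barcodes of that library. Of the 444332 UMIs of the bleomycin members, the deepest held 63110, 36431, 33789, 30446, 24178, 19969 and 19302. These barcodes had only 6, 3, 3, 10, 5, 4 and 4 marker UMIs. Levels summed over the members weigh them most. The PBS members had a median of 12339 UMIs (10718 to 32139). A fixed minimum of 3 UMIs is reached more easily in a deep barcode, and the part of depth in the membership was not tested except by thinning. When every barcode was thinned to 1000 UMIs before the rule was applied, 27 bleomycin barcodes and 1 PBS barcode met it. The libraries shared 28 barcode sequences, of which 1 belonged to a bleomycin member and none to a PBS member.

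**Figure D1:**
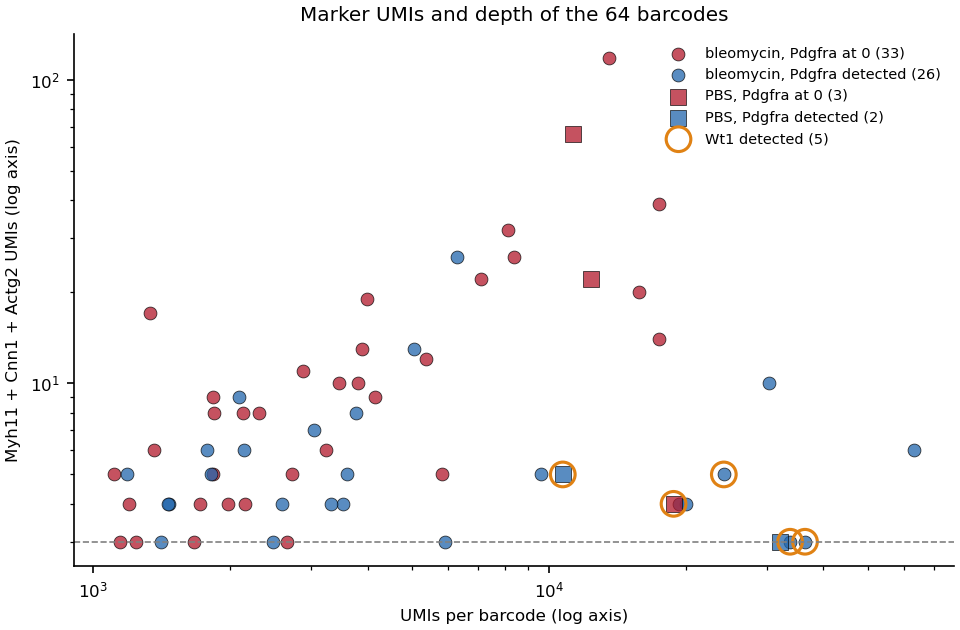
Total UMIs of each of the 64 barcodes (log axis) against its summed Myh11, Cnn1 and Actg2 UMIs (log axis), with circles for bleomycin, squares for PBS, colour for whether Pdgfra was detected and rings for barcodes with Wt1. The 7 bleomycin members with 20 or more marker UMIs lie well above the dashed threshold of 3, while the 5 ringed barcodes are deep and hold only 3 to 5 marker UMIs.

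Free RNA can put a few UMIs into any droplet, so the same count was made in cells that should lack these genes. At least 3 marker UMIs were found in 1 of 225 barcodes with 3 or more Ptprc UMIs after PBS (0.444%, 0.0113 to 2.45; median 7123 UMIs) and in 1 of 259 after bleomycin (0.386%, 0.00977 to 2.13; median 7612 UMIs). The share of all eligible Cthrc1-negative barcodes was 0.780% (0.594 to 1.00) after bleomycin at a median of 3257 UMIs. After PBS it was 0.0941% (0.0306 to 0.220) at a median of 10261.5 UMIs, below the share of the Ptprc barcodes. Within each library the intervals of the 2 shares overlap, so the share of barcodes alone is not read as expression. Acta2 stood at 3466 CPM (counts per 1000000 of the summed UMIs of a set) in the bleomycin members and at 31.9 CPM in the Ptprc barcodes. The members were chosen by contractile UMIs and the Ptprc barcodes were not, so these 2 levels are not a like comparison. In all eligible Cthrc1-negative barcodes after bleomycin, Acta2 was at 126 CPM. That set was also not chosen by marker UMIs, but it includes the members, which raise its level. Barcodes with 3 or more Pecam1 UMIs reached the marker threshold in 3 of 71 cases after bleomycin (4.23%, 0.880 to 11.9; 121 CPM of Acta2) and in 1 of 134 after PBS (0.746%, 0.0189 to 4.09), and are not members.

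Promoter sequences of 2 genes that stood higher in the members are shown because they hold a CArG box, and that of Cnn1 because it is one of the choosing genes and holds none. Each is the 250 bases before a RefSeq transcript start on build GRCm38.p6, 5′ to 3′ on the gene's strand, with the box in capitals. The Myl9 window is chr2:156775214-156775463 on the plus strand, the Actc1 window chr2:114052876-114053125 on the minus strand and the Cnn1 window chr9:22099003-22099252 on the plus strand. That Cnn1 window runs past the gene start of 22099221 given above, so its end lies within the gene as placed there.
Myl9: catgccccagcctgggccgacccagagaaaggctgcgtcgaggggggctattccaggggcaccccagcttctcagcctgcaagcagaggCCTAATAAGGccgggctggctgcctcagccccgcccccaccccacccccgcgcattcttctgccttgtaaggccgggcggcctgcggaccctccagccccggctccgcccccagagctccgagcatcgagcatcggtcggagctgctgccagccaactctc
Actc1: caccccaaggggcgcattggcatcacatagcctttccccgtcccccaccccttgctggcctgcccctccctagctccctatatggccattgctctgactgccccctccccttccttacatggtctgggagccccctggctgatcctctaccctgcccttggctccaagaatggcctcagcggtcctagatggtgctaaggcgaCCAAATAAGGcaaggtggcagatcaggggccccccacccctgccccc
Cnn1: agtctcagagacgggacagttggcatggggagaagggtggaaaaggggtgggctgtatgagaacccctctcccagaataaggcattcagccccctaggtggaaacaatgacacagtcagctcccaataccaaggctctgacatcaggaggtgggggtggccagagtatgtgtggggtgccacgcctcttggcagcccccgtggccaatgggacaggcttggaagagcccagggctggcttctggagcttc
The strict CArG box, which reads the same on both strands and is counted with overlaps allowed, began 161 bases before the Myl9 start and 47 bases before the Actc1 start. It occurred in the window of 2 of the 18 genes of the contractile list that had an entry (11.1%), Myl9 and Myl6, and in 439 of all 27025 genes (1.62%). With 2 genes this is a count and not a comparison, and no match says only that the strict letters are not in this window.

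The members were first set beside the other Pdgfra-positive barcodes of the same library, all Cthrc1-negative and below 3 marker UMIs. Log2 ratios were taken after adding 1 CPM to summed levels, and a gene was called higher or lower past a log2 ratio of 1 in either direction, with at least 20 UMIs over both sets. The members were chosen by contractile UMIs, and this comparison set was kept below 3 of them. Levels of genes that go with the choosing genes are therefore not independent of the choice. The same holds in the later comparisons with barcodes outside the members. The contractile list held 20 genes outside the rule. Of these, 14 were higher and none lower in the bleomycin members, with a median log2 ratio of 1.51, where 11.0% of the 15227 genes measured were higher, 14.6% were lower and the median gene stood at −0.01. Among genes with a mean level of at least 50 CPM, 5.73% were higher and 7.31% lower.

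Acta2, the smooth muscle alpha actin, ranged from 0 to 291 UMIs per bleomycin member with a median of 11, and was detected in 56 of 59. Its summed level was 3466 CPM (3295 to 3643) against 89.8 CPM (87.1 to 92.6) in the other Pdgfra-positive barcodes, a log2 ratio of 5.25. Tagln, an actin-bundling protein of smooth muscle, ranged from 0 to 189 UMIs with a median of 7 and stood at 3034 CPM against 146.7 CPM (log2 ratio 4.36). Most members thus held both of these usual smooth muscle transcripts, and 3 held neither.

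The light chain Myl9 stood at 911 CPM against 31.1 CPM, and the tropomyosin Tpm2 at 1195 CPM against 110.6 CPM. Lmod1, a leiomodin that builds actin filaments in smooth muscle, had the highest log2 ratio of the list, 6.13, at 216 CPM against 2.10 CPM and in 30 members. The actin-binding Synpo2 was at 187 CPM against 9.24 CPM, and the intermediate filament gene Des at 412 CPM (354 to 476) against 64.0 CPM. Not every part of the apparatus differed. Mylk, the light chain kinase, was at 538 CPM (472 to 611) against 700 CPM (log2 ratio −0.38), Csrp1 at 637 CPM against 634 CPM, and Pgm5 at 18.0 CPM against 29.1 CPM.

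**Figure D2:**
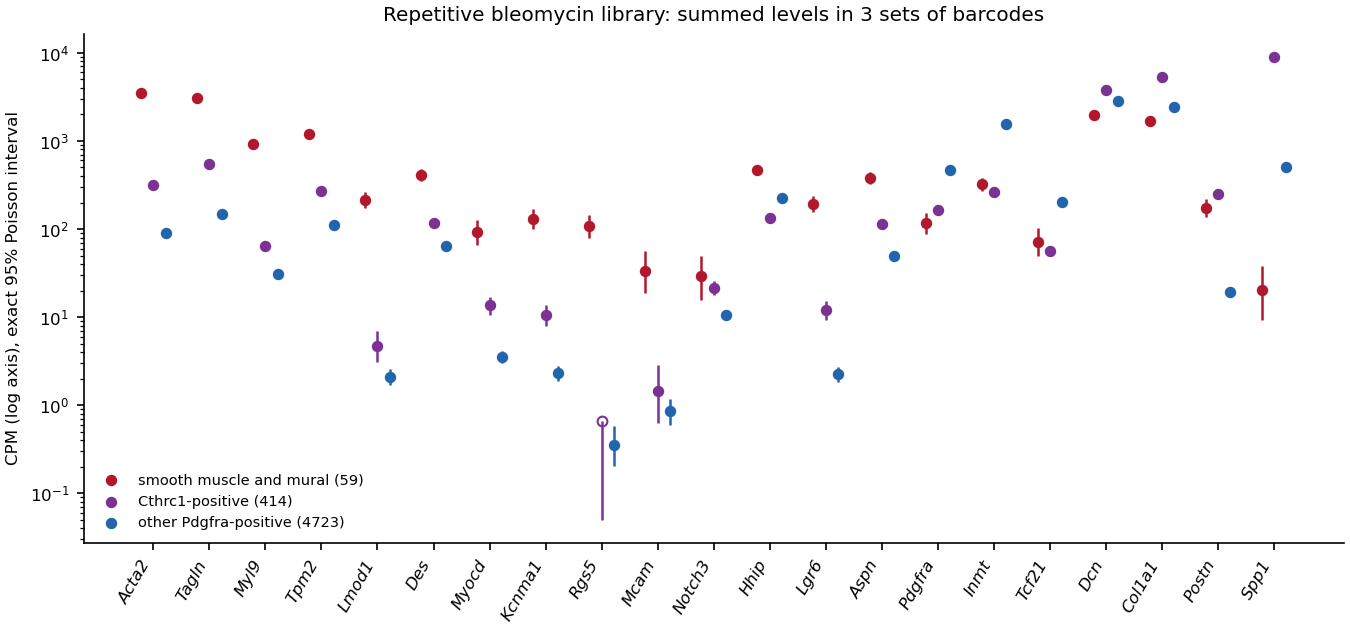
Summed level of 21 genes in CPM (log axis) in the 59 smooth muscle and mural barcodes, the 414 Cthrc1-positive and the 4723 other Pdgfra-positive barcodes of the repetitive bleomycin library, with exact 95% Poisson intervals and an open circle at the upper bound where no UMI was found. Acta2, Tagln, Myl9, Lmod1 and Rgs5 were highest in the smooth muscle and mural barcodes, Spp1 and Col1a1 in the Cthrc1-positive and Pdgfra and Inmt in the other Pdgfra-positive.

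Of 12 regulators of the smooth muscle programme, 4 were higher and none lower (median 0.41). Myocd was at 92.3 CPM (66.2 to 125) against 3.51 CPM (log2 ratio 4.37) and was detected in 13 members. The Notch receptor gene Notch3 (log2 ratio 1.40, 13 UMIs) was also higher, as was Tbx18, on 3 UMIs. Gata6, encoding a zinc finger factor, was the fourth (1.79), but 46 of its 64 UMIs lay in 3 members with Wt1 that had no Acta2 UMI. Without those 3 it was at 51.4 CPM (30.5 to 81.3) against 40.9 CPM, a log2 ratio of 0.32, and was no longer past 1. The genes of the related coactivators Mrtfa and Mrtfb were at −0.53 and 0.29. Srf itself was found as 5 UMIs in 2 members.

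Among the ion channels and calcium handling genes, 3 of 12 measured were higher and 1 lower (median 0.48). These were both subunits of the calcium-activated potassium channel, Kcnma1 (131 CPM against 2.30 CPM, log2 ratio 5.32) and Kcnmb1 (17 UMIs in 11 members, 38.3 CPM against 0.0671 CPM), and the ryanodine receptor Ryr2 (24.8 CPM against 0.425 CPM, 4.18). Kcnma1 was carried by 17 members, with 23 of its 58 UMIs in 1 of them. The L-type channel subunit Cacna1c stood at 0.54.

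Receptors that trigger contraction were sparse. Agtr1a, Chrm2, Chrm3, Hrh1 and Oxtr had no UMI in the 444332 of the bleomycin members, which allows up to 6.75 CPM each. The endothelin receptor Ednra was at 135 CPM (103 to 174) against 271 CPM, and the adrenergic receptor Adra1a at 18.0 CPM against 121 CPM. Ednrb was the exception with 6 UMIs in 3 members (log2 ratio 3.18). Cyclic GMP is a signal that relaxes smooth muscle. Of 8 genes that make, sense or degrade it, 3 were higher and none lower (median 0.59). They were led by the phosphodiesterase Pde3a (189 CPM against 35.1 CPM) and the natriuretic peptide receptor Npr1 (42.8 CPM against 7.63 CPM).

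Genes that tell mural subtypes apart were next. Of 13 pericyte genes, 7 were higher and none lower (median 1.16, or 1.40 with undetected genes set at the level of 3 UMIs). The median ran from 0.41 with a pseudocount of 10 CPM to 1.89 with at least 2 of 3 markers. Rgs5, a regulator of G protein signals and a usual pericyte gene, was at 108 CPM (79.7 to 143) against 0.358 CPM, but 31 of its 48 UMIs lay in 1 member and 9 members had any. Mcam was detected in 11 members (log2 ratio 4.23) and Cspg4, encoding NG2, in 10 (3.15). Pdgfrb was at 133 CPM against 115 CPM, Kcnj8 at 67.5 CPM against 65.3 CPM, and the pericyte gene Higd1b had no UMI.

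Of 10 measured vascular smooth muscle genes, which share Rgs5, Notch3 and Mcam with the pericyte list, 8 were higher and 1 lower (median 2.59). Sncg was at 135 CPM (103 to 174) against 2.17 CPM and was found in 15 members, and the neurotrophin receptor Ntrk3 was at 96.8 CPM against 6.08 CPM and was also found in 15. The arterial connexin gene Gja5 had 1 UMI.

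Of 12 genes of airway smooth muscle and alveolar duct cells, 8 were higher and 2 lower (median 2.34). That median was 0.90 with each barcode weighted equally and 0.28 after thinning to 1000 UMIs. The stem cell receptor gene Lgr6 was at 194 CPM (155 to 239) against 2.24 CPM, the muscle gene Mustn1 at 401 CPM against 39.9 CPM, and the small proteoglycan gene Aspn at 378 CPM against 49.9 CPM. Hhip, an inhibitor of hedgehog signals, was at 470 CPM (409 to 539) against 227 CPM. Pdgfra itself was lower, at 117 CPM (87.4 to 153) against 464 CPM, but the comparison set was defined by it. The hedgehog target Gli1 had 1 UMI.

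Hhip and some of these genes were held by few barcodes, while Mustn1 was detected in 33 members and Aspn in 22. The members with 9 or more Hhip UMIs are a set chosen after the values were seen. Of the 209 Hhip UMIs, 199 (95.2%) lay in 5 members, which had 63, 62, 50, 15 and 9. The same 5 members held 127 of the 168 Aspn UMIs, 75 of the 86 Lgr6 UMIs, 103 of the 109 UMIs of the heparanase-like gene Hpse2 (in 3 of the 5) and 50 of the 77 Postn UMIs, but none of the 111 Itih4 UMIs, 26 of the 60 Sncg UMIs and 5 of the 48 Rgs5 UMIs. Thinned to 1000 UMIs, Hhip would be seen in 11.2% of members and 14.8% of other Pdgfra-positive barcodes, so the summed level and the share of barcodes did not order the sets the same way. A total of 40 of the 59 members had neither Hhip nor Rgs5. In PBS, 1 member held all 23 Hhip UMIs together with 96 of 98 Aspn and 44 of 47 Hpse2 UMIs, and another held 17 Cpe, 9 Mcam, 31 Postn and the only Rgs5 UMI.

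**Figure D3:**
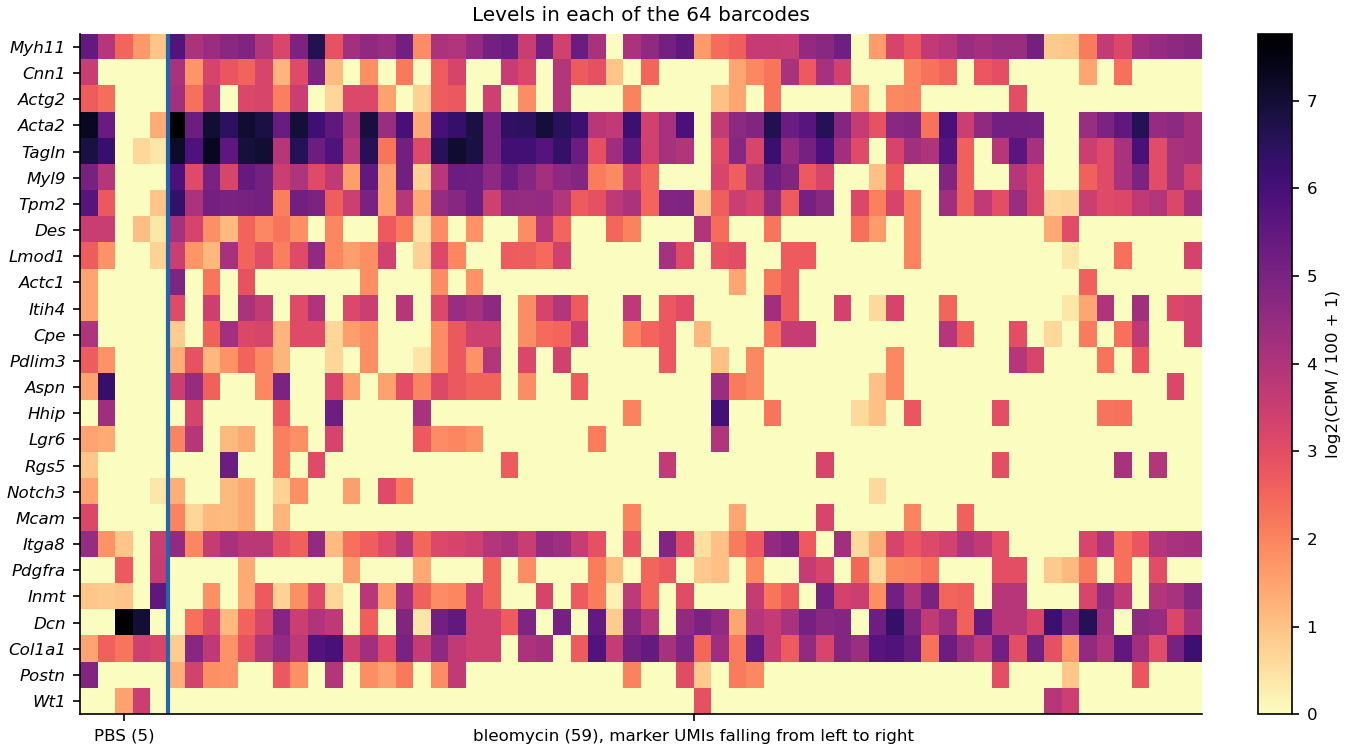
Level of 26 genes in each of the 64 barcodes as log2(CPM / 100 + 1), with the 5 PBS members left of the blue line and the 59 bleomycin members right of it, each ordered by marker UMIs. Acta2 and Tagln fill most columns, Hhip, Lgr6 and Aspn share a few, Itih4 and Cpe are found in many, and the 5 columns with Wt1 lack Acta2.

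The genes named by rank had the most extreme log2 ratios among genes on no list with the same sign in both libraries. A gene with no UMI in the 85213 of the 5 PBS members is negative there if the comparison set has any. For the lowest genes the shared sign is therefore not read as agreement. Itih4, encoding an inter-alpha-trypsin inhibitor heavy chain, was the highest. It was detected in 32 of the 59 bleomycin members with 0 to 10 UMIs each (median 1), at 250 CPM (206 to 301) against 0.761 CPM (0.527 to 1.06), a log2 ratio of 7.15. Of the 4723 other Pdgfra-positive barcodes, 28 had an Itih4 UMI. In PBS it had 2 UMIs in 1 member.

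Cpe, carboxypeptidase E, was found in 34 members (176 CPM against 3.60 CPM), the sarcomeric scaffold gene Pdlim3 in 24 (106 CPM against 2.21 CPM) and the neuregulin receptor Erbb4 in 14 (78.8 CPM against 1.36 CPM). Of the 35 Erbb4 UMIs, 19 lay in 1 member, and no other had more than 3. Others rested on few members. Actc1, the cardiac alpha actin, had 56 UMIs in 10 members, 40 of them in the member with the most marker UMIs. Pkhd1l1 was in 1 member, Gatm in 2, Tmem108 in 3 and Hpse2 in 6. The lowest genes included the immunoglobulin light chain genes Iglc2 (2 UMIs, against 283 CPM) and Iglc3 (none, against 96.1 CPM), whose antibody RNA is made by plasma cells, and Apoc1, C6, Colq, Kctd15, Efcc1, Ptprt and Gm26802 with no UMI in the members against 18.9 CPM (Ptprt) to 51.0 CPM (C6). The sodium channel gene Scn3a had 3 UMIs in 2 members.

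Genes of FBs were lower. Of 12 alveolar FB genes, 11 were lower and none higher (median −2.24). Inmt, a methyltransferase abundant in alveolar FBs, was at 322 CPM (271 to 379) against 1538 CPM, Npnt, encoding a basement membrane ligand, at 248 CPM against 1167 CPM, and the transcription factor gene Tcf21 at 72.0 CPM against 204 CPM. The median of this list was −1.17 with each barcode weighted equally and −1.36 after thinning to 1000 UMIs. Of 10 adventitial FB genes, 5 were lower and none higher (median −0.99). Dcn was at 1953 CPM against 2860 CPM, and 436 of its 868 UMIs lay in the 3 members with Wt1 described next. Without those 3 Dcn was at 1235 CPM (1121 to 1357), a log2 ratio of −1.21. Detection of FB genes was still common. Dcn was found in 51 of the 59 bleomycin members, in 48 of them together with Acta2, and Col1a1 in 57. In the 7407 Cthrc1-negative eligible barcodes with no marker UMI, at a median of 3260 UMIs, Dcn was found in 5920 and Col1a1 in 7096. Whether some members are FBs was not tested.

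The label did not hold for every member. Wt1, a transcription factor gene of mesothelium, was found in 3 bleomycin members (49, 33 and 16 UMIs) and 2 PBS members (19 and 2 UMIs). None of these 5 had an Acta2 UMI, they had 3, 3, 5, 4 and 5 Myh11 UMIs, and 1 had a Tagln UMI. The 3 in bleomycin held all UMIs of Krt19 (53), Upk3b (31), Gatm (137) and Tmem108 (78), and 110 of 120 of Fabp4, a fatty acid binding protein. They also held 65 of the 183 Des UMIs. These 5 barcodes were singled out after their values were seen. The mesothelial genes Msln and Krt8 had no UMI. The 3 were also the only bleomycin members without Acta2. Without barcodes with Wt1, the contractile median was 1.73 in bleomycin and 2.14 in PBS.

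The deepest member, with 63110 UMIs in bleomycin, had no Myh11 UMI and 6 of Cnn1, with 74 of Acta2. It held all UMIs of Hmga2 (101), of the dividing-cell genes Mki67 (19) and Birc5 (28), and 73 of the 107 of Grem1, a BMP inhibitor. Leaving it out moved the contractile median to 1.53. Markers of other cells made up few UMIs, but those of endothelium were higher in the members. The 6 endothelial genes summed to 29 UMIs, or 65.3 CPM (43.7 to 93.7) against 23.2 CPM in the other Pdgfra-positive barcodes, with 4 of 5 measured genes higher, none lower and a median of 1.70. Among them Cdh5 had 2 UMIs, Cldn5 6 in 2 members, and Kdr 5 in 1 member with Wt1, and Pecam1 was at 0 by the rule. The 6 epithelial genes summed to 24 UMIs, the 8 leukocyte genes to 40 and the 4 globin genes to 1 in the 444332 UMIs of the bleomycin members. Their part in the results was not tested. One member had 30.5% mitochondrial UMIs, where the median was 3.37%.

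Acta2, Tagln and Myl9, outside the rule, stood higher at each step of marker UMIs after bleomycin. After PBS this order failed between 1 to 2 marker UMIs (78 barcodes) and 3 to 5 (3 barcodes). There Acta2 was at 83.7 and 81.2 CPM, Tagln at 137 and 32.5 CPM, and Myl9 at 29.6 and 0 CPM. With 20 or more (2 PBS barcodes) Acta2 was at 9364 CPM. Among Cthrc1-negative eligible barcodes after bleomycin, Acta2 was at 93.2 CPM with no marker UMI (7407 barcodes), 348 CPM with 1 to 2 (99), 1181 CPM with 3 to 5 (29), 3233 CPM with 6 to 19 (23) and 9869 CPM with 20 or more (7). Tagln ran from 145 CPM to 8342 CPM and Myl9 from 32.2 CPM to 2493 CPM over the same steps. Mylk did not follow, at 657, 697, 299, 640 and 927 CPM. Des was at 62.6, 101, 421, 282 and 679 CPM, but without barcodes with Wt1 it was at 61.7, 52.4, 175, 282 and 679 CPM, so that it stood higher at each step from 1 to 2 marker UMIs on. Mylk still did not follow without them, at 664, 797, 505, 640 and 927 CPM. Over the same steps Pdgfra went from 396 CPM to 13.1 CPM and Inmt from 1491 CPM to 104 CPM. Dcn was at 3165, 3408 and 3447 CPM up to 5 marker UMIs (3071, 2744 and 2371 CPM without barcodes with Wt1), and at 722 and 849 CPM above. The barcodes just outside the rule, with 2 marker UMIs, had 1195 CPM of Acta2, and those just inside, with 3, had 634 CPM. Of the 19 barcodes with 2 marker UMIs, 3 had Wt1 and no Acta2, as did 2 of the 9 with 3. Without these, the level was 2357 CPM (1968 to 2801) in 16 barcodes with 2 marker UMIs and 3331 CPM (2509 to 4336) in 7 with 3, and the intervals overlap.

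**Figure D4:**
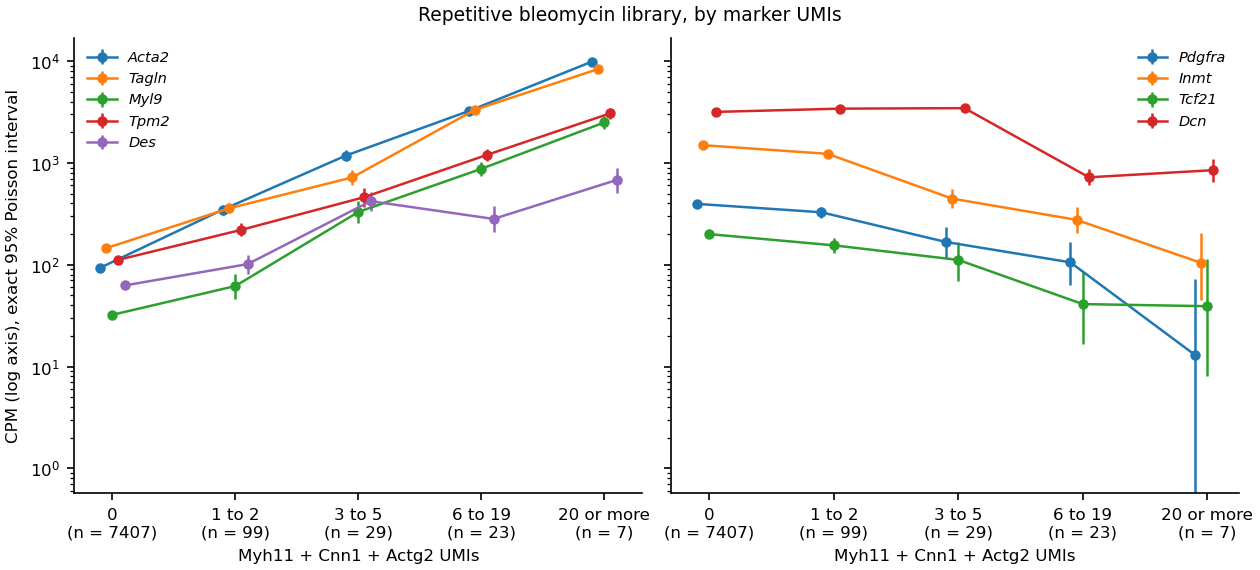
Summed level in CPM (log axis, exact 95% Poisson intervals) of 5 contractile genes (left) and 4 FB genes (right) in Cthrc1-negative eligible barcodes of the repetitive bleomycin library, by marker UMIs, with the number of barcodes under each step. Acta2 goes from 93.2 to 9869 CPM from left to right and Pdgfra from 396 to 13.1 CPM.

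All barcodes came from a GFP sort, and of the 59 bleomycin members 26 had a Pdgfra UMI and 33 had none. Non-detection was also common outside the members. Of the 7407 Cthrc1-negative eligible barcodes with no marker UMI, at a median of 3260 UMIs, 4673 had a Pdgfra UMI. The 33 members without Pdgfra were shallower (median 2727 UMIs against 3561.5) and had more marker UMIs (median 8 against 5). Acta2 was at 7706 CPM (7275 to 8156) in those without Pdgfra and at 1204 CPM (1081 to 1338) in those with it, and the contractile list was higher by a median log2 ratio of 1.45, against −0.12 for the median gene. Sncg (12 of 33 members against 3 of 26) and Itga8, an integrin of contractile mesenchyme (990 CPM against 217 CPM), had the same order. Itga8 was not particular to members, as over other Pdgfra-positive barcodes in PBS it had the lowest log2 ratio of the 12 regulators, −0.71. All 3 members with Wt1 and the deepest member were among those with Pdgfra, and without these 4 Acta2 was at 2079 CPM (1841 to 2340) in the remaining 22, Itga8 was at 469 CPM (359 to 601), and the contractile median was 1.28, against −0.02 for the median gene. Fn1, encoding fibronectin, was at 776 CPM (644 to 928) without Pdgfra and 3102 CPM with it, but at 915 CPM (759 to 1093) in those 22. The intervals of Fn1 thus overlapped once those 4 were left out. Timp1 was at 58.2 CPM (26.6 to 111) without Pdgfra and 735 CPM with it, and at 817 CPM (670 to 986) in the 22, where 89 of its 108 UMIs lay in 1 member. Atf3, an early stress gene, was at 149 CPM (94.3 to 223) without Pdgfra and 845 CPM with it, and at 348 CPM (255 to 464) in the 22.

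The members were next compared with the 414 Cthrc1-positive barcodes of the bleomycin library, which asks how they differ from the matrix-producing FBs. Of those barcodes, 3 had 3 or more marker UMIs. All 20 contractile genes were measured, 12 were higher and none lower, with a median log2 ratio of 1.54, where 7.09% of 11458 genes were higher, 9.56% were lower and the median gene stood at 0.04. At a mean level of at least 50 CPM, 4.90% were higher and 4.43% lower. Acta2 was at 3466 CPM against 314 CPM (299 to 329), a log2 ratio of 3.46, and Tagln at 3034 CPM against 543 CPM (2.48). Acta2 was detected in 187 of the 414 Cthrc1-positive barcodes and in 56 of the 59 members. Lmod1 (4.71 CPM in the Cthrc1-positive barcodes, log2 ratio 5.25) and Synpo2 (8.15 CPM, 4.36) differed most. Tpm1 (0.83), Cald1 (0.23), Mylk (0.09) and Tes (−0.19) differed by less than 1.

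Matrix genes had the opposite order. Of 14 measured genes of fibrotic matrix, 8 were lower and none higher (median −1.15). The rule kept Cthrc1 at 0 in the members and the comparison set was defined by it. The levels of genes that go with Cthrc1 are therefore not independent of the choice. Over the other Pdgfra-positive barcodes, also without Cthrc1, the median of this list was −0.42, with 2 of 14 genes higher and 2 lower. Col1a1 was at 1692 CPM (1574 to 1818) against 5352 CPM, Col1a2 at 2098 CPM against 5860 CPM, and Sparc at 2926 CPM against 6952 CPM. Spp1, the secreted phosphoprotein osteopontin, was found as 9 UMIs in 5 members, at 20.3 CPM (9.26 to 38.5) against 8916 CPM (log2 ratio −8.71). The matricellular genes Postn (−0.51) and Tnc (−0.46), and the fibrillar Col5a1 (−0.55), differed by less than 1. Without barcodes with Wt1 the median was −0.93. Basement membrane and elastic fibre genes of smooth muscle stood at a median of −0.42, with 3 of 14 lower (Eln at 1539 CPM against 3311 CPM) and 1 higher. Without barcodes with Wt1, Eln was at 1872 CPM (log2 ratio −0.82) and no longer past −1.

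Of 11 pericyte genes measured here, 5 were higher and 1 lower (median 0.86). Rgs5 had no UMI in the 5519752 of the Cthrc1-positive barcodes, which allows up to 0.544 CPM. Cspg4 was at 29.3 CPM against 35.0 CPM and Pdgfrb at 133 CPM against 236 CPM. The alveolar FB genes, far below other Pdgfra-positive barcodes, stood close to the Cthrc1-positive ones, with 1 of 11 lower (Fgf10) and a median of −0.11. Inmt was at 322 CPM against 265 CPM and Col13a1 at 45.0 CPM against 48.6 CPM. Of the adventitial genes 6 of 10 were lower (median −1.06).

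Ranked over genes on no list, Itih4 again led (log2 ratio 7.52, 2 of the 414 Cthrc1-positive barcodes with a UMI). Fabp4, Tmem108, Cxcl13, Actc1, Gm15056, Gatm and Fabp5 followed but lay in 2 to 10 members each, and the chemokine Cxcl13 had 548 of its 618 UMIs in 1 member. Among the lowest, the thrombospondin Thbs4 (115 CPM in the Cthrc1-positive barcodes), the growth factor pleiotrophin Ptn (61.1 CPM), Mmp10 (55.6 CPM), Zfp804a (49.5 CPM), Fut9 (45.7 CPM) and Meg3 (42.9 CPM) had no UMI in the members, which allows up to 6.75 CPM. The hyaluronidase Cemip (189 CPM) and the collagen gene Col8a1 (134 CPM) had 1 UMI each.

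**Figure D5:**
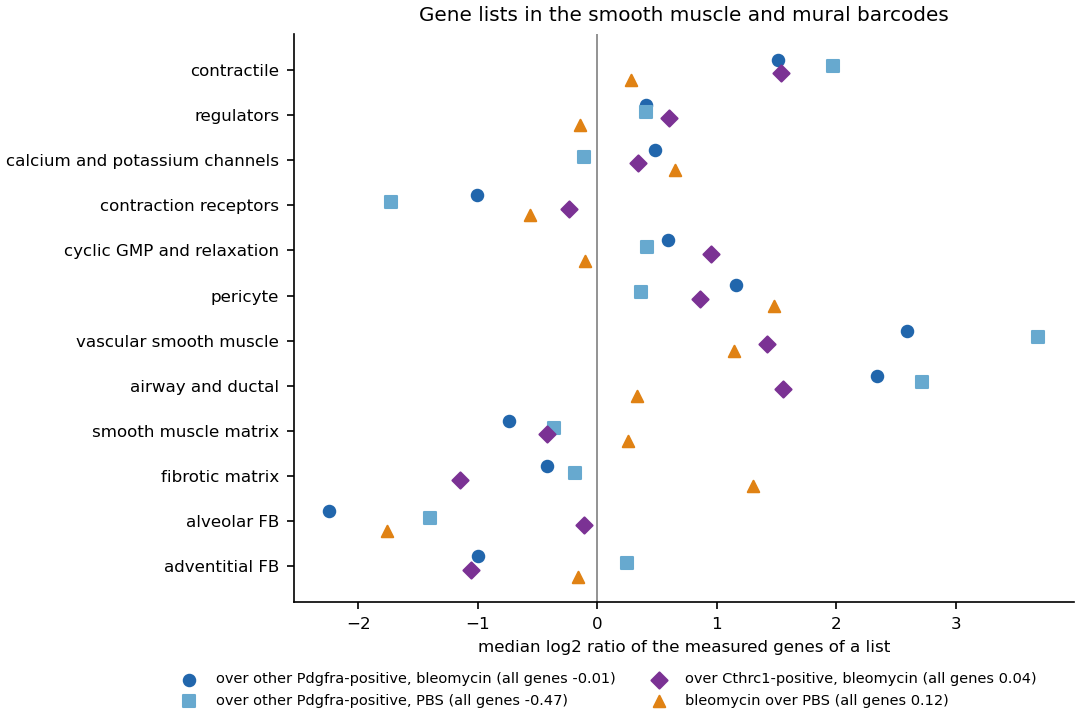
Median log2 ratio of the measured genes of 12 lists in 4 comparisons of the smooth muscle and mural barcodes, with the median over all genes measured given in the legend. The contractile list lies at 1.51 and 1.97 over other Pdgfra-positive barcodes and at 1.54 over Cthrc1-positive ones, but at 0.29 in bleomycin over PBS members, where fibrotic matrix genes lie at 1.30. The contraction receptor point over other Pdgfra-positive barcodes after bleomycin lies below 0 and turns to 0.80 with undetected genes set at the level of 3 UMIs. Under that setting the PBS point of this list turns from −1.73 to 3.06 and the PBS pericyte point moves from 0.37 to 2.26.

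The 5 PBS members, with 85213 UMIs in all, were set beside the 4903 other Pdgfra-positive PBS barcodes. Of 20 contractile genes, 14 were higher and 1 lower (median 1.97), where 15.3% of 14894 genes were higher, 32.3% were lower and the median gene stood at −0.47. At a mean level of at least 50 CPM, 13.4% were higher and 9.10% lower. The contractile signal came from 2 barcodes. Their Acta2 UMIs were 172 and 49 where the other 3 had 5, 0 and 0, and their Tagln UMIs were 124 and 92 where the others had 1, 1 and 0. In sum, Acta2 was at 2652 CPM (3 barcodes) against 13.7 CPM and Myocd at 141 CPM (12 UMIs in 2 barcodes) against 0.186 CPM. The other 3 comprised the 2 barcodes with Wt1, which held 237 and 232 Dcn UMIs, and 1 with 35 Pdgfra and 142 Inmt UMIs.

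The last comparison was between conditions, and it rests on those 5 PBS barcodes. Members made up 0.739% of eligible barcodes after bleomycin and 0.0938% after PBS. The exact intervals did not overlap, but they cover counting error only. Barcodes of 1 library are not replicates, so this is not a test between conditions. With at least 6 marker UMIs there were 30 and 2 barcodes, and after thinning to 1000 UMIs there were 27 and 1. A share of a GFP sort cannot tell more smooth muscle and mural cells in the lung from more of them making the reporter, or from fewer other GFP+ cells. The median depth of all barcodes also differed, at 10178 UMIs after PBS and 2478 UMIs after bleomycin. The 16 Cthrc1-positive barcodes after PBS were not compared with the members.

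Between members the contractile genes differed little, with 1 of 18 measured genes higher after bleomycin (Tpm1, log2 ratio 1.44, with 215 of its 579 UMIs in 1 member) and none lower (median 0.29), where 17.6% of 4753 genes were higher, 9.24% were lower and the median gene stood at 0.12. At a mean level of at least 50 CPM the balance was the opposite, with 10.5% higher and 13.3% lower. Acta2 was at 3466 CPM after bleomycin and 2652 CPM after PBS, and Myh11 at 972 CPM and 904 CPM. With at least 6 marker UMIs the median turned to −0.71, with at least 2 of the 3 markers to −0.69 and after thinning to −0.36, so the direction depends on which barcodes are kept. Of 13 measured genes of fibrotic matrix, 9 were higher after bleomycin and 1 lower (median 1.30). The summed list was at 14833.5 CPM after bleomycin and 6243 CPM after PBS. In other Pdgfra-positive barcodes it was at 21126 CPM and 6049 CPM, so this order was not particular to the members. Col1a1 was at 1692 CPM (1574 to 1818) after bleomycin and 669 CPM (507 to 867) after PBS. Tnc, encoding tenascin C, was at 659 CPM and 46.9 CPM, and 122 of its 293 UMIs after bleomycin lay in 1 member. Timp1, an inhibitor of matrix proteases, was at 500 CPM and 23.5 CPM (2 UMIs), and 105 and 89 of its 222 UMIs lay in 2 members. Postn was the gene that was lower (173 CPM and 364 CPM), and all its 31 PBS UMIs lay in 1 barcode.

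Alveolar FB genes were lower after bleomycin in 7 of 9 (median −1.76), with Inmt at 322 CPM and 1702 CPM, of whose 145 PBS UMIs 142 lay in 1 barcode. The same barcode held 383 of the 421 UMIs of the whole list in the PBS members. The summed list was at 1339 CPM and 4941 CPM in the members, and at 6182 CPM and 12512 CPM in other Pdgfra-positive barcodes. Early stress genes, a list of immediate early and heat shock genes, stood at a median of −0.82, with 4 of 9 lower and 1 higher (Hspa1b, log2 ratio 1.81, on 4 PBS UMIs). Among the lower were Fos (2127 CPM and 4330 CPM) and Egr1 (916 CPM and 2253 CPM). Summed, the early stress list was at 8422 CPM and 15925 CPM in the members, and at 6326 CPM and 11363 CPM in other Pdgfra-positive barcodes. The alveolar FB and early stress lists thus had the same order outside the members. Of the genes ranked outside the lists, the gelatinase gene Mmp2 was found in 40 of 59 bleomycin members (208 UMIs) and in none of the 5 PBS members. Saa3 (417 of 419 UMIs), Pcdh15 (103 of 138), Penk (73 of 84), Col24a1 (52 of 54), Galnt18 (38 of 53), Gm15056 (48 of 84) and Hmga2 (all 101) rested mostly on 1 barcode. Among the lowest were Txndc11, Jak1, Arih1, Cxcl10, Tiparp, Birc3 and Ppp1r15a, at log2 ratios of −3.36 to −2.37. These too rested mostly on 1 PBS barcode, the deepest, which held 165 of 178 Arih1, 97 of 107 Jak1, 55 of 64 Txndc11, 39 of 48 Birc3, 24 of 37 Ppp1r15a and 17 of 28 Tiparp UMIs, while all 32 Cxcl10 UMIs lay in another. Summed over all members, Jak1 was at 133 CPM after bleomycin (detected in 26) and at 1256 CPM after PBS (detected in 3).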

How the data were processed

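Single cells of GFP+ sorted lung from 1 library per condition (3 pooled mice each) were analysed from the deposited matrices, in which the authors gave raw UMI counts per gene and barcode. The submitters' processing notes name Cell Ranger 3.0.1, Seurat 3 and the mm10 build. Total counts were 64697147 UMIs after PBS and 68354458 after bleomycin. Doublets were not called.

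Members were chosen by the thresholds given in the report. The members, the 19 gene lists and the comparisons were chosen with earlier results of these data known. Counts were summed over barcodes and scaled to CPM with exact 95% Poisson intervals, and shares have exact Clopper-Pearson intervals. Both cover counting error only. Ratios were log2 after adding 1 CPM, for genes with at least 20 UMIs over both sets. With 1 library per condition there was no test, and a gene past a log2 ratio of 1 is only a size. Detection at equal depth is the expected share of barcodes with a UMI among 1000 drawn. A level of 0 allows up to the CPM of 3 UMIs.

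Genes named outside the lists had at least 50 UMIs over both sets and were neither ribosomal nor mitochondrial. They were the 10 highest and 10 lowest ratios over other Pdgfra-positive barcodes after bleomycin with the same sign after PBS, and the 8 highest and 8 lowest over Cthrc1-positive barcodes and between conditions. Of the genes these rules name, 2 are not reported here. Promoters and positions came from RefSeq tables on GRCm38.p6. Of the choosing genes, Cnn1 had a promoter entry. The computation was tested on simulated data. Python 3.11.15, numpy 2.4.6, scipy 1.17.1, pandas 2.3.3 and matplotlib 3.10.9 were used. Alternatives varied the marker threshold, depth, thinning, mitochondrial share, pseudocount and count filter. Leaving out barcodes with Wt1 or the deepest member, weighting barcodes equally, splitting members by Pdgfra, and leaving barcodes with Wt1 out of subsets and single genes were added after seeing the data.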

Additional observations from a re-analysis of the deposited data

Results flagged for a closer look

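The same thresholds were met by 4 of 860 eligible barcodes (0.465%, exact 95% interval 0.127 to 1.19) of a library made after a single dose of bleomycin, which the report does not describe, and by 0 of 930 of its PBS control, which allows a share of up to 0.323%. This was singled out as a signal in a library outside the report's comparisons that lay above its control. The 4 barcodes held 19, 16, 38 and 41 Acta2 UMIs and 0, 44, 104 and 0 Tagln UMIs. Dcn was present in all 4, at 34, 60, 41 and 1 UMIs. Over the 559 other Pdgfra-positive barcodes of that library, 6 of 18 measured contractile genes were higher and 3 lower. The contractile median was 0.53, against −0.53 for the median gene and 0.20 for the median gene at a mean level of at least 50 CPM. With undetected genes set at the level of 3 UMIs the contractile median was 1.07, without a matching value for all genes. The interval and the limit overlap, so a difference was not detectable at this depth.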

How the results depend on the processing

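The contractile medians of members over the other sets, the fibrotic median over Cthrc1-positive barcodes, and the pericyte, alveolar and airway medians over other Pdgfra-positive barcodes after bleomycin kept their sign under the 10 alternatives run. Over these sets, the other list medians were not recomputed under them. The contractile median over other Pdgfra-positive barcodes after bleomycin (1.51) became 1.83 with at least 6 marker UMIs, 1.81 with at least 2 of 3 markers, 2.12 after thinning to 1000 UMIs, 1.73 without barcodes with Wt1 and 1.83 with barcodes weighted equally. After PBS (1.97) it became 3.34 under both marker thresholds and 2.54 with equal weights. Over Cthrc1-positive barcodes (1.54) it became 1.83, 1.78, 2.07 after thinning, 1.21 with a pseudocount of 10 CPM and 2.31 with equal weights. The fibrotic median there (−1.15) became −1.56 after thinning and −0.93 without barcodes with Wt1. Between conditions the contractile median (0.29) turned negative, to −0.71, −0.69 and −0.36 after thinning. Members numbered 30 after bleomycin and 2 after PBS with at least 6 marker UMIs, 27 and 1 after thinning. With at least 2 of 3 markers 2 remained after PBS, and 3 without barcodes with Wt1. The cause was not tested. After thinning, the fibrotic median between conditions was 10.02 and rests on 1 PBS barcode. No paired analysis was possible because each condition was 1 library. Levels below 6.75 CPM after bleomycin and 35.2 CPM after PBS could not be told from 0.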

Other observations

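The thresholds were also met by 96 of 2642 eligible barcodes (3.63%, exact 95% interval 2.95 to 4.42) of a library from normal organoid cultures and by 180 of 5280 (3.41%, 2.94 to 3.93) of one from fibrogenic cultures. Cnn1 was detected in 85 and 154 of these and Myh11 in 23 and 52, at median depths of 56774 and 67834.5 UMIs. Hhip was detected in 0 and 1 of them and Rgs5 in 2 and 2. Acta2 stood at 3586 CPM and 3528 CPM.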
